A study of Mus musculus with 24 samples.

Results

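Ly6Chigh monocytes and Mgl1low macrophages sorted from the same injured muscles were compared on day 4 after notexin, a snake venom toxin that destroys myofibres and is followed by regeneration. The comparison takes 8 of the 24 arrays of the series, 4 of Ly6Chigh cells against 4 of Mgl1low cells, chosen by the sorted subset and the injury that the labels give. Both subsets were CD11b+ Ly6G- NK1.1- cells of the tibialis anterior muscle. The Ly6Chigh cells were high for Ly6C and low for the Adgre1 protein, an antigen of macrophages, and the Mgl1low cells were high for it and low for both Ly6C and Mgl1. Each subset was sorted once from each of 4 strains of adult mice on a C57Bl/6 background: Cx3cr1-/- mice, Ccl2-/- mice, mice lacking both genes (Cx3cr1-/-Ccl2-/-) and C57Bl/6 wild-type (WT) mice. The methods describe a single sorting experiment with mice pooled by strain and condition. The 2 arrays of a strain therefore share their mice and were compared as a pair. The 4 strains served as the replicates. The p-values therefore cover the spread of the within-pool differences over 4 different strains, with no replicate within a strain. All 8 arrays came from injured muscle; the other 16 arrays of the series were of Mgl1high cells and of Ly6Clow cells low for the Adgre1 antigen on day 4 and of Mgl1low and Mgl1high cells of untreated muscle. RNA was amplified before hybridisation, and every value below is a log2 intensity or a difference of log2 intensities unless said otherwise. Per-array values are given in the order WT, Cx3cr1-/-, Ccl2-/-, Cx3cr1-/-Ccl2-/-.

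Classical Ly6Chigh monocytes leave the bone marrow and enter damaged tissue through the receptor CCR2, where they produce cytokines and then differentiate into macrophages. As they differentiate they lose Ly6C, gain the Adgre1 antigen, enlarge their lysosomes and take up dead cells. In regenerating muscle their differentiation accompanies the change of the infiltrate, which first clears debris and later supplies growth factors to muscle precursors.

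Of the genes that define the sort, Ly6c1 and Adgre1 differed in the direction of the labels, while Clec10a did not pass the test. Ly6c1, which encodes one of the Ly6C antigens, had 9.52, 9.45, 9.16 and 9.503 in Ly6Chigh cells, against 5.83, 6.12, 5.82 and 5.83 in Mgl1low cells. The groups were far apart in all 4 pools. Adgre1, an adhesion receptor of macrophages, had 11.16, 11.35, 10.58 and 11.0002 in Ly6Chigh cells, against 11.71, 11.59, 11.44 and 11.82 in Mgl1low cells, a narrower separation without overlap. Its 2 other probes did not pass in limma (-0.51 and -0.58, adjusted p = 0.070 and 0.095). Clec10a, which encodes Mgl1, averaged 11.55 ± 0.12 in Ly6Chigh cells and 11.99 ± 0.39 in Mgl1low cells (SD, n = 4 each), and its difference of -0.44 did not pass the test (95% interval -0.80 to -0.07 before adjustment). Itgam, which encodes CD11b, was detected in every array and was higher in Ly6Chigh cells (0.74 ± 0.21 SE, adjusted p = 0.036 in limma), in 3 of 4 pools and with overlap. It did not pass without the WT, the Cx3cr1-/- or the Cx3cr1-/-Ccl2-/- pair (adjusted p up to 0.18). Klrb1c, which encodes NK1.1, was detected in 3 of 4 Ly6Chigh and 1 of 4 Mgl1low arrays and did not pass (0.42, adjusted p = 0.16). Because the sort used these proteins, their differences check the gates and are not findings. Of the remaining markers of the 2 subsets, Plac8, a small cysteine-rich protein of monocytes, was higher in Ly6Chigh cells in all 4 pools, and Ctsl, a lysosomal cysteine protease, and Gpnmb, a transmembrane glycoprotein of phagocytes, were lower. Ly6c2 and Ly6g have no named probe here.

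A probe was called when its adjusted p was under 0.05 in limma, paired by pool and adjusted by the Benjamini-Hochberg method over the 16807 probes detected in at least 4 of the 8 arrays. Of 8896 genes so tested, 1756 (19.7%) were called: 651 (7.32%) were higher and 1105 (12.4%) lower in Ly6Chigh cells. The last 2 shares are the background for every count of list members below. The lists were chosen with earlier results of these data known, so those counts describe the lists and are no separate support. The difference had 1 sign in all 4 pools for 1697 of the called genes, and the 2 groups of arrays did not overlap for 1116. The genes were called on these same differences, so both counts follow in part from the calling and are no separate support. Their shares over all genes tested are not given. At 2-fold or more, 144 genes were higher and 292 lower. By probes, 3148 were called, 1474 higher and 1674 lower. These counts depend on the design of the test: 1799 probes were called when the pairing was left out, and 1705 without the Ccl2-/- pair, 1925 without the Cx3cr1-/- pair and 1023 without the Cx3cr1-/-Ccl2-/- pair. With the spread taken from all 16 day-4 arrays and no pairing, 41 probes were called (16 higher and 25 lower); with the 3 of those arrays that had the fewest detected probes left out and the pools kept as a block, 1392 were called. The split of directions depends on the scaling, since 502 were higher and 4960 lower when each array was only scaled to 1 median, which moved the median difference of all probes to -0.31. No called gene named here changed sign under any setting.

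**Figure D1:**
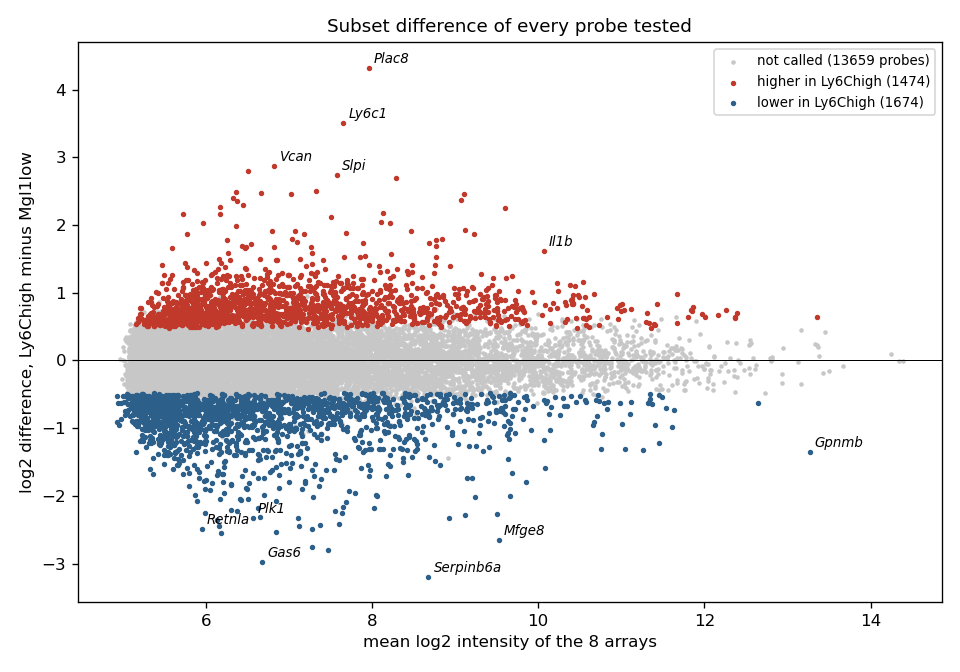
Subset difference of each of the 16807 probes tested (vertical axis, log2, Ly6Chigh minus Mgl1low) against its mean log2 intensity over the 8 arrays (horizontal axis). The 1474 red probes were higher and the 1674 blue probes lower in Ly6Chigh cells, and Plac8 and Serpinb6a stand at the upper and lower ends.

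Fewer probes were above background in Ly6Chigh than in Mgl1low cells. The number detected (p under 0.05) was 15437, 14135, 16392 and 16445 in Ly6Chigh arrays, against 18068, 17643, 18289 and 16668 in Mgl1low arrays. It was lower in Ly6Chigh cells in 4 of 4 pairs (exact permutation test over the pairs, two-sided p = 0.13, the smallest that 4 pairs allow). Of the genes lower in Ly6Chigh cells, 132 were detected in none of the Ly6Chigh arrays; of those higher, 6 were detected in none of the Mgl1low arrays. These genes could enter the test only through the arrays in which they were high. With only the probes detected in all 8 arrays, 2271 were called, 1277 higher and 994 lower, so that 56.2% of calls were higher, against 46.8%. In sorted pools, fewer cells that express a gene and less RNA of it per cell cannot be told apart.

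The gene with the largest difference between the subsets was Plac8, which was higher in Ly6Chigh cells. Plac8 had 9.67, 9.998, 10.53 and 10.32 in Ly6Chigh cells, against 5.42, 5.65, 6.37 and 5.78 in Mgl1low cells, which is 19.99-fold (difference 4.32 ± 0.15 SE, adjusted p = 4.3e-07). No other gene that passed differed by as much in either direction, and the difference lay between 4.16 and 4.54 in the 4 pools. Next came Ly6c1 (3.51 ± 0.16), Vcan, the matrix proteoglycan versican (2.87 ± 0.41), Ifitm6, an interferon-inducible transmembrane protein (2.80 ± 0.23), Slpi, an inhibitor of leukocyte proteases (2.74 ± 0.18), and Slfn4, a schlafen gene of the interferon response (2.70 ± 0.20). Fpr2, a receptor for formylated peptides (2.50 ± 0.27), Cd177, a surface glycoprotein of myeloid cells (2.47 ± 0.23), Klra2, a lectin-like receptor of the Ly49 family (2.46 ± 0.17), Hdc, which makes histamine (2.37 ± 0.30), Il1r2, the decoy receptor for interleukin-1 (2.30 ± 0.21), and F10, coagulation factor X (2.25 ± 0.20), completed the 12 with the largest differences. Vcan and Ifitm6 were each detected in 2 of 4 Mgl1low arrays. Their adjusted p ran up to 0.0019, and each stayed past the threshold without any 1 pair.

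Of 11 monocyte identity genes tested, 10 were higher in Ly6Chigh cells and none lower, and their median difference was 1.92, against -0.06 over all genes tested. Without Ly6c1, whose protein set the gates, 9 of 10 were higher. Plac8, Vcan and Ifitm6, named above among the largest differences, are members of this list. Ccr2, the receptor for CCL2, had 8.08, 8.05, 8.15 and 7.85 in Ly6Chigh cells, against 6.45, 6.28, 6.08 and 5.65 in Mgl1low cells (difference 1.92 ± 0.16, adjusted p = 0.00012). The Ly6Chigh values lay close together in all 4 strains, and the groups did not overlap. Ms4a4c, a four-span membrane protein, rose by 2.04 ± 0.28. Chil3, a chitinase-like protein, had a smaller difference of 0.66 ± 0.16 and passed only with the Cx3cr1-/-, the Ccl2-/- and the Cx3cr1-/-Ccl2-/- pairs all present (adjusted p up to 0.0975 without 1 of them). Itgal, the alpha chain of LFA-1, rose by 0.86 ± 0.24 and did not pass without the Ccl2-/- or the Cx3cr1-/-Ccl2-/- pair (up to 0.185) or without the pairing (0.0975). Mgst1, a microsomal glutathione transferase, was the member that did not pass (-0.36, adjusted p = 0.26). Cx3cr1, a chemokine receptor that 2 of the strains lack, had 7.56 and 6.41 in Ly6Chigh cells of the 2 strains that carry the gene, WT and Ccl2-/-, against 6.64 and 7.04 in their Mgl1low cells, and these values overlapped.

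**Figure D2:**
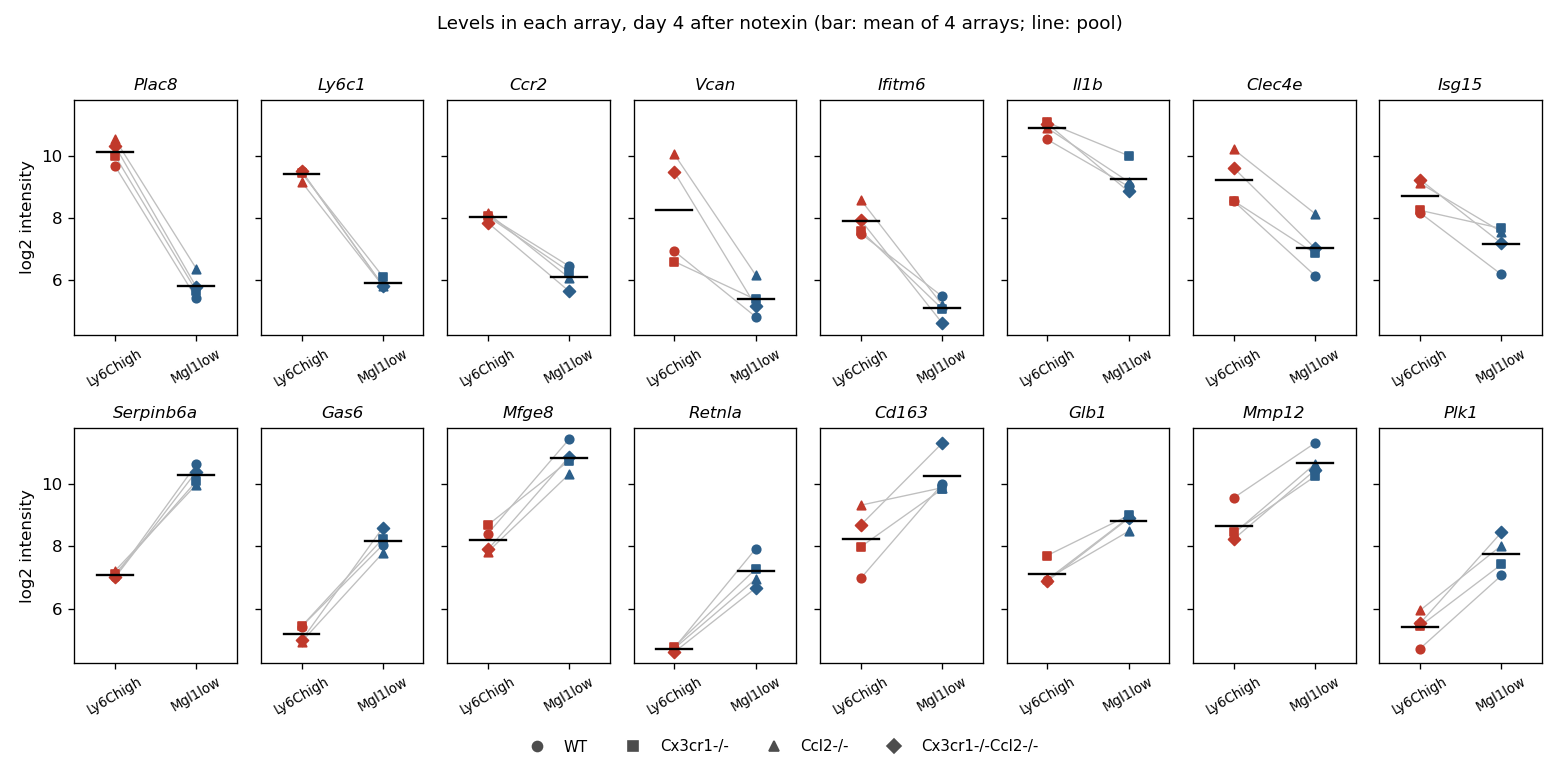
Log2 intensity (vertical axis) of 16 genes in each array, with Ly6Chigh cells at the left and Mgl1low cells at the right of each panel; symbols give the strain, grey lines join the 2 arrays of a pool and bars are means of 4 arrays. The upper 8 genes were higher and the lower 8 genes lower in Ly6Chigh cells in all 4 pools, and the Vcan values of Ly6Chigh cells split into 6.93 and 6.60 (WT and Cx3cr1-/-) and 10.05 and 9.47 (Ccl2-/- and Cx3cr1-/-Ccl2-/-).

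Of 21 inflammatory effectors tested, 10 were higher in Ly6Chigh cells, 1 was lower and 10 did not pass, with a median difference of 0.55. Il1b, which encodes interleukin-1 beta, had 10.52, 11.07, 10.89 and 11.04 in Ly6Chigh cells, against 9.02, 10.004, 9.17 and 8.85 in Mgl1low cells (3.08-fold, adjusted p = 0.00075). The lowest Ly6Chigh value stood above the highest Mgl1low value. Clec4e, the receptor Mincle for damaged cells and microbial glycolipids, had 8.54, 8.55, 10.21 and 9.61 in Ly6Chigh cells, against 6.15, 6.86, 8.14 and 7.04 in Mgl1low cells (difference 2.18 ± 0.18, adjusted p = 0.0001). Its partner receptor Clec4d rose by 0.89 ± 0.15. Acod1, which makes itaconate, rose by 2.12 ± 0.20, and Ptgs2, the inducible cyclooxygenase, by 0.97 ± 0.19. Among the brakes on interleukin-1, the decoy receptor Il1r2 had 6.66, 8.55, 7.73 and 7.46 in Ly6Chigh cells, against 5.19, 5.70, 5.30 and 5.03 in Mgl1low cells, while the receptor antagonist Il1rn differed by 0.61 ± 0.18 with overlapping groups. Cxcl1, a chemokine for neutrophils, was the member called lower (-0.94 ± 0.29), but it was lower in 3 of 4 pools and the groups overlapped. Cxcl2 (0.08) and Nfkbia (0.15), a target and inhibitor of NF-kB, did not pass, and Nos2 was detected in none of the 8 arrays. The count of higher members was 5 when the Cx3cr1-/-Ccl2-/- pair was left out, 6 without the Ccl2-/- pair and 5 without the pairing; Ptgs2 was lost without the Cx3cr1-/-Ccl2-/- pair (adjusted p = 0.053), Clec4d without the pairing (0.15), and Il1rn without the pairing (0.23) or any pair but that of WT (up to 0.2). Cxcl1 was lost without the pairing (0.28) or any pair but that of Ccl2-/- (up to 0.14).

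Of 12 chemokines tested, 3 were higher (25%) and 2 lower (16.7%) in Ly6Chigh cells, against 7.32% and 12.4% of all genes, so that the share of lower members was near that of all genes; of 7 chemotactic receptors, Ccr2 and Fpr2 were higher and none lower. Ccl2, the ligand of CCR2, differed by 0.92 ± 0.16 (adjusted p = 0.0051, or 0.066 without the pairing), and Ccl7, a second CCR2 ligand, by 0.59 ± 0.15. Of the 4 pools averaged for Ccl2, 2 are labelled as lacking the gene, and its probe did not follow those labels. In the strains that carry it, WT and Cx3cr1-/-, Ccl2 had 8.76 and 8.71 in Ly6Chigh cells, against 7.63 and 8.04 in Mgl1low cells. Ccl5, which attracts lymphocytes and monocytes, had 8.39, 7.70, 6.80 and 6.85 in Ly6Chigh cells, against 6.74, 7.44, 5.30 and 5.86 in Mgl1low cells, higher in all 4 pools although the groups overlapped (adjusted p = 0.0082). Pf4, a CXC chemokine also stored in platelets, went the other way, with 7.90, 7.82, 8.501 and 9.26 in Ly6Chigh cells, against 10.02, 10.32, 11.22 and 11.03 in Mgl1low cells (difference -2.27 ± 0.18, adjusted p = 9.8e-05). Ccl8, a CC chemokine of resident macrophages, was lower by a difference of -1.64 ± 0.21, detected in 1 of 4 Ly6Chigh arrays. Ccl4 (0.04) and Ccl9 (0.48) did not pass. Leaving out the pairing cost the calls of Ccl7 (0.34) and Ccl5 (0.13) too, so that none of the chemokines was then called higher, and Ccl7 was also lost without the Cx3cr1-/- or the Cx3cr1-/-Ccl2-/- pair (up to 0.14); 5 chemokines were called higher without the WT pair.

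Interferon-stimulated genes were shifted as a group toward Ly6Chigh cells. Of 33 tested, 18 were higher and none lower, and the difference was positive for 32, with a median of 0.74. Isg15, a ubiquitin-like modifier, had 8.17, 8.25, 9.12 and 9.23 in Ly6Chigh cells, against 6.19, 7.67, 7.56 and 7.19 in Mgl1low cells (difference 1.54 ± 0.23, adjusted p = 0.0022). Slfn1, a schlafen gene, rose by 1.53 ± 0.21, Ifi205, of the family of cytosolic nucleic acid sensors, by 1.25 ± 0.21, and Xaf1, a regulator of apoptosis, by 1.10 ± 0.21. The chemokine Cxcl10 rose by 1.07 ± 0.31 with overlapping groups. Among the members that did not pass, Ifit3 differed by 0.46 (adjusted p = 0.12) and Ifit2 by 0.29 (0.47). The count was 6 without the Cx3cr1-/-Ccl2-/- pair, 9 without the Ccl2-/- pair and 20 without the WT pair; it was 9 without the pairing and 7 under median scaling. Cxcl10 was lost without the pairing (0.13) and without the WT, Ccl2-/- or Cx3cr1-/-Ccl2-/- pair (up to 0.19).

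Promoters of these genes often carry the binding core of interferon regulatory factors, and the stretches below show it for 3 called members. In the RefSeq promoter table (GRCm38.p6, 250 bases before to 50 after each gene's start), the letters GAAANNGAA, searched on both strands, were present for 19 of 28 members with a promoter (67.9%), against 9.76% of all 27025 genes in the table; of the 12 called members with a promoter, 7 had a match. The sequences run 5′ to 3′ toward the gene, with the matches of the stretch in capitals. Isg15 has 3 overlapping matches on chr4:156200851-156200909 (minus strand), the last starting 66 bases before the gene. Ifi205 has one on chr1:174031856-174031914 (minus strand) that starts 134 bases before the gene. Cxcl10 has one on chr5:92349069-92349127 (minus strand) that starts 213 bases before it. A match is a description of the letters and was not measured as a bound site.
Isg15: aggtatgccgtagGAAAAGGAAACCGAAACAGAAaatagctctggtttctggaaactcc
Ifi205: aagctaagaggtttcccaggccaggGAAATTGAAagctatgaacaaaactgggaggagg
Cxcl10: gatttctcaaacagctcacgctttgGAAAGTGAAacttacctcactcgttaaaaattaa

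Genes of the hypoxia response and of glucose use were higher in Ly6Chigh cells where they differed. Of 23 tested, 8 were higher and none lower, with a median difference of 0.33. Slc16a3, which exports lactate, had 6.79, 7.02, 7.79 and 7.504 in Ly6Chigh cells, against 5.26, 5.29, 6.13 and 5.69 in Mgl1low cells (difference 1.68 ± 0.15, adjusted p = 0.00015), and the groups were apart. The glucose transporter Slc2a1 rose by 1.12 ± 0.18, the oxygen-regulated transcription factor subunit Hif1a by 1.03 ± 0.16 and the angiogenic factor Vegfa by 1.21 ± 0.17. Of the glycolytic enzymes, Pkm, pyruvate kinase, differed by 0.33 at its brighter probe (adjusted p = 0.15) and was called higher at a second (1.12), and Tpi1, triosephosphate isomerase, differed by -0.13 (0.66). A second, dim probe of Slc16a3 did not pass (0.16), and neither did 1 of the 2 other probes of Vegfa (0.44). None of 24 respiratory chain subunits passed in either direction, and their differences ran from -0.47 to 0.40. Of the hypoxia list, 4 members stayed called without the Cx3cr1-/-Ccl2-/- pair, 5 without the Ccl2-/- pair, 4 without the pairing and 5 under median scaling.

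Sterol synthesis, which cells raise when membrane cholesterol is low, had 4 of 13 genes higher and 1 lower in Ly6Chigh cells, with a median difference of 0.55. The higher and lower members were 30.8% and 7.69% of the list, against 7.32% and 12.4% of all genes. Cyp51, a lanosterol demethylase, rose by 1.27 ± 0.28 although it was higher in 3 of 4 pools, Idi1, an isomerase of the same pathway, by 0.96 ± 0.21, and Srebf2, the transcription factor that drives it, by 0.71 ± 0.16. None of these calls held without the Cx3cr1-/-Ccl2-/- pair (adjusted p = 0.076, 0.057 and 0.09) or without the pairing (0.11, 0.11 and 0.06), and Srebf2 was also lost without the Ccl2-/- pair; 7 genes of the list were called higher without the WT pair and 2 without the Ccl2-/- pair. Cholesterol export went the other way. Abca1, which loads cholesterol onto lipoproteins, had 8.29, 7.89, 6.85 and 7.32 in Ly6Chigh cells, against 10.11, 9.29, 8.59 and 9.09 in Mgl1low cells (3.21-fold lower, adjusted p = 0.00019), and Pltp, a phospholipid transfer protein, was lower by a difference of -1.47 ± 0.18. Of the 15 LXR and cholesterol efflux genes tested, 4 were lower (26.7%, against 12.4% of all genes) and 1 higher (6.67%, against 7.32%). Only 2 of the lower calls remained without the Cx3cr1-/-Ccl2-/- pair. Pparg, the higher member, had a difference of 0.60 ± 0.18 and was lost without the pairing (0.073) and without the Cx3cr1-/- or the Cx3cr1-/-Ccl2-/- pair (up to 0.24).

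Apoe, the apolipoprotein of macrophages, was at 12.15, 12.21, 9.49 and 10.65 in Ly6Chigh cells, against 12.14, 12.60, 11.51 and 12.16 in Mgl1low cells. The groups overlapped: in WT the subsets differed by 0.01, and in Ccl2-/- by -2.03. The difference over the 4 pools was -0.98 ± 0.29 (adjusted p = 0.041). It was lost without the pairing (0.23) and without the Cx3cr1-/-, the Ccl2-/- or the Cx3cr1-/-Ccl2-/- pair (up to 0.18).

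Serpinb6a had the largest difference in the direction of Mgl1low macrophages. Serpinb6a, an intracellular serine protease inhibitor, had 7.01, 7.11, 7.21 and 6.9997 in Ly6Chigh cells, against 10.63, 10.09, 9.98 and 10.40 in Mgl1low cells (9.14-fold lower in Ly6Chigh, adjusted p = 1.7e-05). Its Ly6Chigh values lay close together, and a dimmer second probe did not pass (-0.45). Scamp5, a protein of secretory vesicles, was lower by a difference of -2.75 ± 0.18, Npl, a sialic acid lyase, by -2.55 ± 0.18, Cnrip1, which binds the cannabinoid receptor, by -2.49 ± 0.21 and Cadm1, an adhesion molecule, by -2.36 ± 0.15. Npl and Cadm1 were detected in 1 of 4 Ly6Chigh arrays and Scamp5 in 3. Retnla, a secreted protein of alternatively activated macrophages, was not detected in Ly6Chigh arrays (4.74, 4.77, 4.72 and 4.60), against 7.92, 7.27, 6.95 and 6.66 in Mgl1low arrays. It was therefore at least 3.81-fold lower in Ly6Chigh cells, taking per array the higher of the probe's own signal and the lowest detected signal. Its probe passed the detection filter only through the Mgl1low arrays. Ctla2b, a cysteine protease inhibitor also detected in no Ly6Chigh array, was at least 4.31-fold lower.

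Among 12 macrophage core genes 7 were lower and 2 higher in Ly6Chigh cells, so this list did not move one way; without Adgre1, whose protein set the gates, 6 of 11 were lower. Cd81, a tetraspanin, had 5.34, 5.55, 5.67 and 5.59 in Ly6Chigh cells, against 7.85, 7.66, 7.59 and 7.74 in Mgl1low cells (4.51-fold lower, adjusted p = 6.5e-05). Mertk, a receptor tyrosine kinase for apoptotic cells, was at 8.76, 8.498, 6.69 and 7.79 in Ly6Chigh cells, against 9.34, 9.60, 8.67 and 8.74 in Mgl1low cells, lower in each pool although the groups overlapped (difference -1.16 ± 0.22). Adgre1 was lower by a difference of -0.62 ± 0.17. The high-affinity IgG receptor Fcgr1 (0.72 ± 0.16) and the lipopolysaccharide co-receptor Cd14 (0.83 ± 0.17) were higher, and Csf1r, the receptor for macrophage colony-stimulating factor, differed by -0.10 (95% interval -0.45 to 0.24 before adjustment). Leaving out the pairing cost the calls of Mertk (0.077), Adgre1 (0.059) and Cd14 (0.057) and left 2 of the lower calls. Adgre1 and Fcgr1 were lost without the Ccl2-/- or the Cx3cr1-/-Ccl2-/- pair (adjusted p up to 0.15 and 0.082) and Cd14 without the last (0.074), and 4 lower members stayed called without the Cx3cr1-/- pair, 3 without the Ccl2-/- pair and 3 without the Cx3cr1-/-Ccl2-/- pair. Both higher calls also ended under median scaling.

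Genes of tissue-resident and alternatively activated macrophages were lower in Ly6Chigh cells: 11 of 17 tested were lower and 1, Chil3, was higher, with a median difference of -1.19. Folr2, a folate receptor of resident macrophages, had 5.85, 6.42, 5.67 and 6.67 in Ly6Chigh cells, against 8.44, 8.32, 8.78 and 8.81 in Mgl1low cells (5.39-fold lower, adjusted p = 0.00012). A second probe gave a difference of -2.33. Cd163, the scavenger receptor for haemoglobin, had 6.97, 7.98, 9.32 and 8.68 in Ly6Chigh cells, against 9.99, 9.84, 9.88 and 11.31 in Mgl1low cells (difference -2.01 ± 0.32). Its difference ranged widely among pools, although the groups did not overlap. Il10, an anti-inflammatory cytokine, was called in neither direction (-0.60, adjusted p = 0.17). The 11 lower members include Retnla, which could enter the test only through the Mgl1low arrays, where it was high. The count of lower members was 10 without each of the 4 pairs in turn.

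Dead-cell uptake had 7 of 19 genes lower (36.8%, against 12.4% of all genes) and none higher in Ly6Chigh cells, with a median difference of -0.26. Among the 7 were bridging proteins that tie phosphatidylserine on dead cells to phagocyte receptors. Gas6, the ligand of Mertk and Axl, had 5.42, 5.43, 4.93 and 4.98 in Ly6Chigh cells, where 2 of 4 arrays detected it, against 8.04, 8.24, 7.78 and 8.60 in Mgl1low cells (difference -2.98 ± 0.19, adjusted p = 3.6e-05). Mfge8, a bridge to integrins, had 8.41, 8.69, 7.82 and 7.90 in Ly6Chigh cells, against 11.44, 10.75, 10.32 and 10.88 in Mgl1low cells (difference -2.64 ± 0.19). Pros1, protein S, was lower by a difference of -0.999 ± 0.22. Calr (-0.08) and Lrp1 (-0.26), which recognise dying cells together, did not pass. Complement, which also coats debris, had C1qc lower by a difference of -1.58 ± 0.27 and C1qb by -1.32 ± 0.24. Factor B, Cfb, was higher by 0.89 ± 0.15, and the other 6 complement genes tested did not pass. Of the complement genes tested, 22.2% were thus lower and 11.1% higher, against 12.4% and 7.32% of all genes. Pros1 was lost without the Cx3cr1-/-Ccl2-/- pair (adjusted p = 0.074), and the count of lower uptake genes was then 3, against 4 without the Ccl2-/- pair and 3 without the pairing.

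Lysosomal genes were lower in Ly6Chigh cells or did not pass, and none was higher. Of 28 hydrolases and membrane proteins tested, 15 were lower (53.6%, median difference -0.53). Of 14 subunits of the vacuolar proton pump, which acidifies the lysosome, 4 were lower (28.6%, median -0.34). The share of all genes called lower was 12.4%. Ctsl had 7.17, 6.55, 7.47 and 7.63 in Ly6Chigh cells, against 8.06, 8.04, 8.72 and 8.69 in Mgl1low cells (2.26-fold lower, adjusted p = 0.0015). Glb1, the lysosomal beta-galactosidase, had 6.93, 7.70, 6.95 and 6.88 in Ly6Chigh cells, against 8.92, 8.99, 8.48 and 8.89 in Mgl1low cells (difference -1.70 ± 0.18), although a second, dim probe differed by 0.21. Ctsa, a carboxypeptidase, was lower by a difference of -1.66 ± 0.22 with overlapping groups, and of its 3 other probes 1 passed in the same direction and 2 did not pass. Ctsk, a collagen-degrading cathepsin (-1.85 ± 0.36), Smpd1, acid sphingomyelinase (-0.95 ± 0.16), and Tpp1, a peptidase (-1.09 ± 0.16), were lower too. In the pump, Atp6v0d2, an inducible subunit of the membrane sector, had 5.75, 5.41, 5.36 and 5.03 in Ly6Chigh cells, against 8.15, 6.89, 7.20 and 6.63 in Mgl1low cells (difference -1.83 ± 0.18). The catalytic subunit Atp6v1a had a smaller difference of -0.73 ± 0.15. Among the members that did not pass were Psap, the precursor of the saposins (-0.35, adjusted p = 0.13), Npc2, a carrier of cholesterol (0.05, 0.89), and Atp6ap1, an accessory subunit of the pump (-0.11, 0.66). The number of lower hydrolases was 6 without the Cx3cr1-/-Ccl2-/- pair and 9 without the Ccl2-/- pair; that of pump subunits was 1 without the Cx3cr1-/-Ccl2-/- pair, 2 without the Ccl2-/- or the Cx3cr1-/- pair, 2 without the pairing and 10 under median scaling, and Atp6v1a was lost without the Cx3cr1-/-Ccl2-/- pair (0.063).

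Many lysosomal genes carry the letters bound by transcription factors of the MITF/TFE family, and the stretches of 4 called genes are given for that reason. TCACGTG, on either strand, was present in the RefSeq promoters of 6 of 24 hydrolases and membrane proteins (25%) and 4 of 9 pump subunits (44.4%), against 4.29% of all 27025 genes; 4 of 13 called hydrolases and 1 of 3 called subunits had it. Matches are in capitals, and where they read TCACGTGA both strands match. They come from chr9:114401004-114401060 (plus strand) for Glb1, chr2:164833736-164833772 (plus strand) for Ctsa, chr7:142387894-142387950 (minus strand) for Ctsd, cathepsin D, and chr16:44139359-44139415 (minus strand) for Atp6v1a. Glb1 has its match 49 bases before the gene and Atp6v1a 131 bases before it. Which factors bind there in these cells was not measured.
Glb1: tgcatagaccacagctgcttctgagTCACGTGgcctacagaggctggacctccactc
Ctsa: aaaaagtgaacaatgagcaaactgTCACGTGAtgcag
Ctsd: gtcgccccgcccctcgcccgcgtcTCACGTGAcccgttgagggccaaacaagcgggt
Atp6v1a: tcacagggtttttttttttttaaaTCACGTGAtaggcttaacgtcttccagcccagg

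Lipid-associated macrophage genes, a program of phagocytes that have taken up lipid, were lower in Ly6Chigh cells in 13 of 17 cases and higher in none (median difference -0.81). Gpnmb had 13.18, 13.11, 11.81 and 12.28 in Ly6Chigh cells, against 14.16, 13.87, 13.87 and 13.87 in Mgl1low cells (2.55-fold lower, adjusted p = 0.003). It was among the brightest genes in both subsets. The 3 equal values are those of a rank that these arrays share after quantile normalization, and the 3 dimmer probes passed in the same direction with differences between -1.96 and -1.31. Trem2, a lipid receptor, had 10.14, 9.76, 7.40 and 8.34 in Ly6Chigh cells, against 10.84, 10.45, 10.08 and 10.12 in Mgl1low cells. It was lower in all 4 pools but overlapped between groups (difference -1.46 ± 0.29, adjusted p = 0.0082, or 0.073 without the pairing). Syngr1, synaptogyrin, was lower by a difference of -1.89 ± 0.36, and the fatty acid binding proteins Fabp5 and Fabp4 by -1.10 ± 0.19 and -0.99 ± 0.18. Lgals3, galectin-3 (-0.26, adjusted p = 0.26), and Tyrobp, the adaptor of Trem2 (0.06, 0.82), did not pass. Of these calls, 7 remained without the Cx3cr1-/-Ccl2-/- pair, 8 without the Ccl2-/- pair and 6 without the pairing.

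Iron handling followed the same direction, with 5 of 11 genes lower and none higher. Slc40a1, the iron exporter ferroportin, had 5.24, 5.18, 5.28 and 4.88 in Ly6Chigh cells, where 1 of 4 arrays detected it, against 9.01, 7.46, 5.89 and 6.44 in Mgl1low cells (difference -2.05 ± 0.38, adjusted p = 0.0059). The spread lay in the Mgl1low cells, and the subsets were closest in the Ccl2-/- pool. Slc48a1, which carries haem out of the lysosome, was lower by a difference of -1.33 ± 0.20, and the transferrin receptor Tfrc by -1.07 ± 0.18 (adjusted p = 0.0034, or 0.075 without the pairing, which left 3 called genes). The ferritin chains Fth1 (-0.16) and Ftl1 (-0.44), which store iron, did not pass.

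Growth factors divided between the subsets. Of 13 tested, Vegfa and Osm were higher and 5 lower in Ly6Chigh cells. Igf1, a growth factor for muscle precursors and fibres, had 10.16, 9.98, 7.69 and 8.004 in Ly6Chigh cells, against 10.96, 10.99, 10.61 and 10.48 in Mgl1low cells (3.49-fold lower, adjusted p = 0.0047). Every pool had less in its Ly6Chigh cells, and the 2 lowest values were those of the Ccl2-/- and Cx3cr1-/-Ccl2-/- pools. Vegfa had 9.75, 10.12, 10.38 and 10.02 in Ly6Chigh cells, against 8.84, 8.999, 9.19 and 8.38 in Mgl1low cells. The platelet-derived growth factor chain Pdgfa was lower by a difference of -1.30 ± 0.19, and Vegfb, detected in no Ly6Chigh array, was at least 1.86-fold lower. Osm, the cytokine oncostatin M, rose by 0.55 ± 0.16 but was lost without the pairing (adjusted p = 0.059) and without any pair but that of WT (up to 0.17). The 5 lower members include Vegfb, which could enter the test only through the Mgl1low arrays. The lower calls were 3 without the Ccl2-/- pair, without the Cx3cr1-/-Ccl2-/- pair or without the pairing.

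Proteases of the matrix and their inhibitors were also divided, with 4 of 12 higher and 4 lower. Mmp12, the macrophage elastase, had 9.55, 8.45, 8.41 and 8.23 in Ly6Chigh cells, against 11.31, 10.24, 10.64 and 10.44 in Mgl1low cells (4.00-fold lower, adjusted p = 9.8e-05). Mmp9, a gelatinase detected in 2 of 4 Ly6Chigh arrays, was lower by a difference of -2.04 ± 0.30 and Timp2, an inhibitor of metalloproteases, by -2.32 ± 0.27. On the other side stood Slpi, with 9.30, 8.27, 9.57 and 8.68 in Ly6Chigh cells, against 6.66, 5.94, 6.29 and 5.96 in Mgl1low cells, and Plaur, the urokinase receptor, which rose by 0.86 ± 0.16. Mmp14, a membrane-bound collagenase, did not pass (-0.22, adjusted p = 0.44). Of the 4 higher calls, 2 remained without the Ccl2-/- pair, without the Cx3cr1-/-Ccl2-/- pair or without the pairing. Integrins differed by subunit: Itgb7 rose by 1.41 ± 0.17 and Itga9, a receptor for matrix proteins, was lower by a difference of -1.74 ± 0.29.

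**Figure D3:**
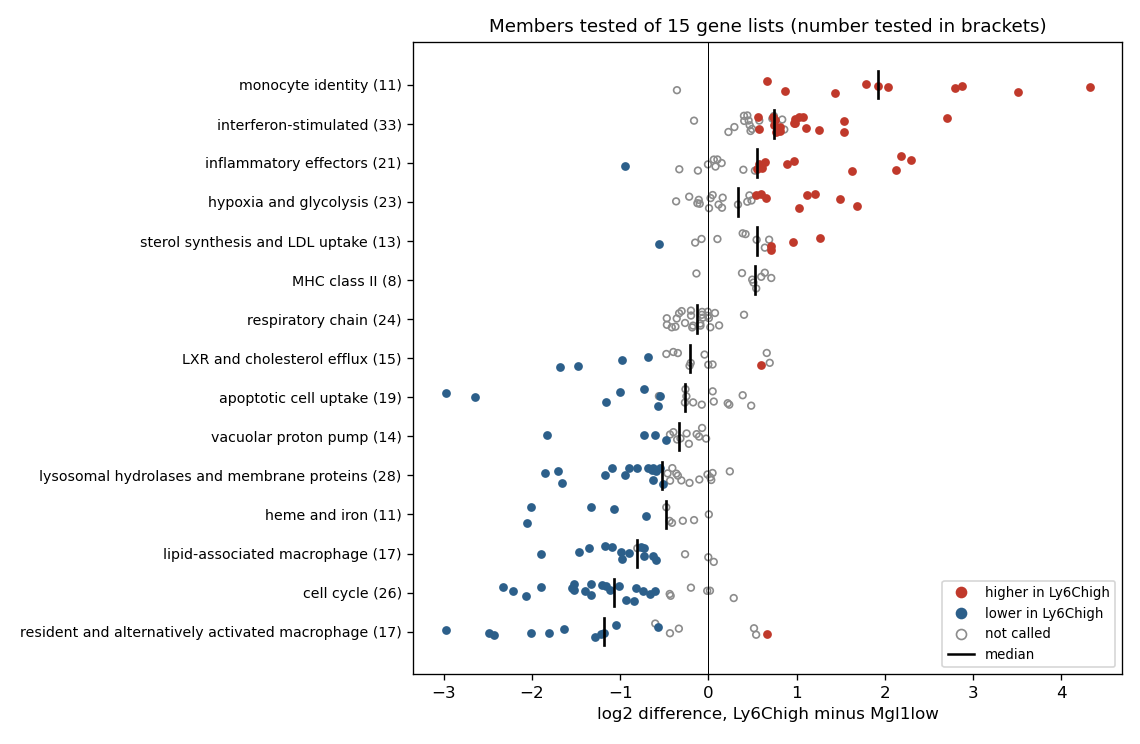
Log2 difference (horizontal axis, Ly6Chigh minus Mgl1low) of each tested member of 15 gene lists (rows), with members called higher in red, called lower in blue and not called as open circles; the black bar is the median of the list. The monocyte identity genes lie to the right at a median of 1.92, the cell cycle and resident macrophage genes to the left at -1.06 and -1.19, and the respiratory chain genes around 0.

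Cell cycle genes were lower in Ly6Chigh cells in 20 of 26 cases and higher in none, with a median difference of -1.06. Plk1, a mitotic kinase, had 4.71, 5.43, 5.94 and 5.52 in Ly6Chigh cells, against 7.06, 7.42, 8.02 and 8.44 in Mgl1low cells (5.04-fold lower, adjusted p = 8.9e-05). Stmn1, which regulates microtubules, had 6.01, 6.61, 6.81 and 6.36 in Ly6Chigh cells, against 8.38, 8.29, 8.75 and 9.23 in Mgl1low cells. In neither gene did the groups overlap. Rrm2, a subunit of the enzyme that makes deoxynucleotides, was lower by a difference of -2.07 ± 0.25, Birc5, survivin, detected in 1 of 4 Ly6Chigh arrays, by -1.90 ± 0.27, and Tk1, thymidine kinase, detected in no Ly6Chigh array, was at least 2.24-fold lower, while its second probe did not pass (-0.29). Outside the list, Cdca8, a partner of survivin at the centromere (-2.45 ± 0.28), and the histone gene H2bc4 (-2.42 ± 0.21) were among the 12 genes with the largest lower differences. Pcna, a sliding clamp of replication, did not differ beyond its error (-0.01, 95% interval -0.34 to 0.31 before adjustment). Cenpa, the centromeric histone, differed by -0.20 at its brighter probe and was called higher (0.56) at a second. The 20 lower members include Tk1, which could enter the test only through the Mgl1low arrays, where it was high. Without the Cx3cr1-/-Ccl2-/- pair 8 members were called, and without the Ccl2-/- pair 13. With only probes detected in all 8 arrays, which leaves out Tk1 and Birc5, 5 members were called.

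Some lists had few calls or none. None of 8 MHC class II genes passed, although 7 of the differences were positive (from -0.14 to 0.71, median 0.53). The median of the list ran from -0.22 in WT to 1.35 in Cx3cr1-/-Ccl2-/-. A second probe of H2-Ab1, a class II beta chain, was called higher (0.77). Cd74, the invariant chain, had 11.41, 12.05, 10.37 and 10.82 in Ly6Chigh cells, against 11.68, 11.55, 10.10 and 9.33 in Mgl1low cells, which overlapped. Of 16 immediate early and heat shock genes, 2 were higher (12.5%, against 7.32% of all genes) and none lower, and Dusp1 (0.05) and Zfp36 (0.21) did not pass. Without the Cx3cr1-/-Ccl2-/- pair 0 of that list were called, without the Ccl2-/- pair or the pairing 1, and under median scaling 0. Of 23 myeloid transcription factors, 3 were higher (13%, against 7.32% of all genes). Among them were Cebpb (0.93 ± 0.21, adjusted p = 0.013), which granulocyte and monocyte genes depend on, and Nr4a1 (0.73 ± 0.17, 0.014). None of the 3 passed without the Cx3cr1-/-Ccl2-/- pair, and 2 did without the Cx3cr1-/- or the Ccl2-/- pair. Cebpb was lost without any pair but that of WT (up to 0.088), Nr4a1 without the Cx3cr1-/-Ccl2-/- pair (0.11), and both ended under median scaling.

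Several markers of other cells were above background. The list of T and NK cells summed to linear intensities of 1522 to 1950 in Ly6Chigh arrays and 1098 to 1529 in Mgl1low arrays, most of it from Prf1, perforin (10.54 and 10.13, not called). That of erythroid cells and platelets summed to 642 to 1007 in Ly6Chigh arrays and 1449 to 2699 in Mgl1low arrays, with Pf4 called lower and the platelet glycoprotein Gp9 not called (8.42 and 7.98); Hba-a1 of red cells and Itga2b of platelets were detected in no array. Of 11 neutrophil markers 6 were detected in no array, S100a8, Ngp and Mpo among them; Csf3r, the one tested, rose by 0.82 ± 0.17 (adjusted p = 0.0086, or 0.14 without the pairing). The summed linear intensity of the list was 391.9 to 568 in Ly6Chigh arrays and 337 to 429 in Mgl1low arrays. A probe detected in no array does not show that its RNA was absent, so the undetected markers do not show that neutrophils were absent. Cd177, the surface glycoprotein of myeloid cells, is not among the markers of this list. It was called higher at both of its probes (2.47 ± 0.23 and 2.16), as Csf3r was. Whether neutrophils contributed to these differences was not tested. Siglecf, the one eosinophil marker tested, detected in 1 of 4 Ly6Chigh arrays, was lower by a difference of -0.93 ± 0.17 (adjusted p = 0.0058, or 0.105 without the pairing), with sums of 131 to 164 in Ly6Chigh and 148 to 228 in Mgl1low arrays. Cd3d and Cd3e of T cells, Pax5 and Ms4a1 of B cells, Ckm, Mb and Myh4 of muscle fibres and Pax7 of muscle stem cells were detected in no array. Ttn, the sarcomere protein titin, was called higher (0.59 ± 0.16), but not without the pairing (0.061) or any pair but that of WT (up to 0.16), and muscle fibre markers summed to 296 to 306 in Ly6Chigh and 266 to 397 in Mgl1low arrays. Of 5 fibroblast markers tested none passed, and the list summed to 444 to 1314 in Ly6Chigh and 455 to 1199 in Mgl1low arrays. The part of other cells in the differences was not tested.

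The leading genes had different levels in the remaining groups of the series, which were sorted from the same or from untreated mice. Ly6c1 averaged 9.41 ± 0.17 in Ly6Chigh cells and 5.90 ± 0.15 in Mgl1low cells of day 4, and between 5.70 and 6.76 in the other 4 groups (SD, n = 4 each). Plac8, with means of 10.13 and 5.81 in the 2 subsets, was also high in the Adgre1-low Ly6Clow cells of day 4 (9.28 ± 0.82), whose highest array of 9.94 lay within the range of the Ly6Chigh arrays, and in Mgl1high cells (8.43 ± 0.88). The Ly6Chigh arrays stood apart from every other array in Ly6c1, whose highest value elsewhere was 7.36. Plac8, Vcan, Slpi, Slfn4, Fpr2, Cd177, Klra2, F10 and Hdc also had their highest mean in Ly6Chigh cells. For Hdc the margin was narrow (10.25, against 10.10 in untreated Mgl1low cells). Il1r2, Il1b and Ifitm6, also called higher, did not peak there. In the Adgre1-low Ly6Clow cells Il1r2 averaged 10.16 ± 0.73 and Il1b 11.48 ± 0.40, against 7.60 ± 0.78 and 10.88 ± 0.25 in Ly6Chigh cells. In untreated Mgl1low cells Ifitm6 averaged 8.39 ± 0.29, against 7.91 ± 0.49 in Ly6Chigh cells. Retnla, which was 7.20 ± 0.54 in Mgl1low cells of day 4, stood at 10.33 ± 0.56 in Mgl1high cells of day 4, at 12.36 ± 0.31 in untreated Mgl1low cells and at 12.40 ± 0.35 in untreated Mgl1high cells. Gpnmb ran the other way, with 12.59 ± 0.66 in Ly6Chigh cells and 13.94 ± 0.14 in Mgl1low cells of day 4, and 8.31 ± 2.30 and 8.04 ± 0.53 in untreated Mgl1low and Mgl1high cells. Of the other groups' arrays, 4 had only 7054 to 10072 detected probes, and no test was made across these groups.

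**Figure D4:**
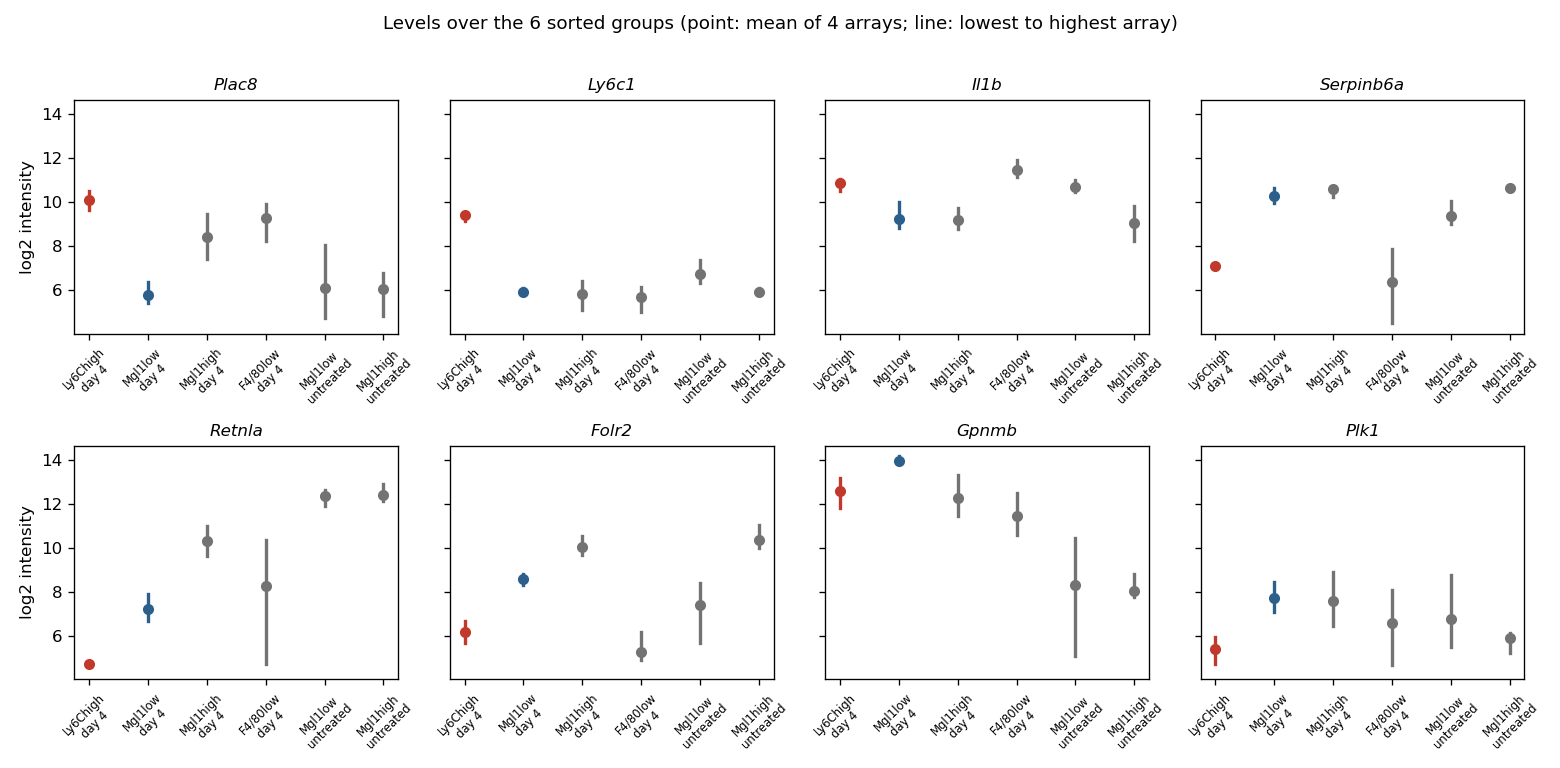
Log2 intensity (vertical axis) of 8 genes over the 6 sorted groups (horizontal axis), with the mean of 4 arrays as a point and the lowest to highest array as a line. Ly6c1 averages 9.41 in Ly6Chigh cells of day 4 and at most 6.76 elsewhere, while Retnla has its lowest mean there and its highest in untreated muscle.

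Whether the difference between the subsets depends on Ccl2 or on Cx3cr1 was asked of the 4 within-pool differences, 2 pools against 2. The Cx3cr1 probe followed the labels: it was at 4.91 and 5.02 in Ly6Chigh and at 5.32 and 4.96 in Mgl1low cells labelled Cx3cr1-/- and Cx3cr1-/-Ccl2-/-, against 7.56 and 6.41, and 6.64 and 7.04, in the strains that carry the gene. The Ccl2 probe did not: in Ly6Chigh cells it was at 9.86 and 9.33 in the pools labelled Ccl2-/- and Cx3cr1-/-Ccl2-/-, against 8.76 in WT and 8.71 in Cx3cr1-/-. No source used here places that probe inside or outside the altered part of the gene, so it checks nothing, and the directions below rest on the labels. For the Ccl2 genotype, 172 of 16807 probes (1.02%) were called, with 1680 at an unadjusted p under 0.05. This count is not stable, since it was between 0 and 6 under 6 other settings, among them the use of the processed intensities that were deposited. For the Cx3cr1 genotype none was called (0%), with 236 at an unadjusted p under 0.05; the count was 0 under every setting tried. With 1 residual degree of freedom, the test rests on a variance taken from all probes together.

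The median subset difference lay further from 0 in both pools labelled Ccl2-deficient than in both others for 16 of 26 gene lists, nearer to 0 for 1 and neither for 9. The median difference of the 33 interferon-stimulated genes was 1.26 in Ccl2-/- and 1.13 in Cx3cr1-/-Ccl2-/-, against 0.23 in WT and 0.21 in Cx3cr1-/-. That of the 26 cell cycle genes was -1.51 and -1.61 in the same 2 pools, against -0.48 in WT and -0.61 in Cx3cr1-/-, and that of the lipid-associated genes was -1.34 and -1.02, against -0.61 and -0.42. Over all genes tested the medians were alike, between -0.07 and -0.05 in the 4 pools. The resident macrophage list differed little among pools, with medians between -1.047 and -1.005. Fibroblast markers moved in the same sense (0.49 in Ccl2-/- and 0.9997 in Cx3cr1-/-Ccl2-/-, against -0.38 in WT and 0.10 in Cx3cr1-/-), and their part was not tested. The complement genes were among the exceptions, with medians of -0.23 and -0.24 in the pools labelled Ccl2-deficient, against -0.63 in WT and -0.18 in Cx3cr1-/-, and so were the chemotactic receptors, with 0.29 and 0.45, against 0.92 and 0.06. These medians are 1 value a pool and carry no test, and the lists shown were chosen after their values were seen.

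Among single genes called in the Ccl2 genotype term, Vcan had a subset difference of 3.87 in Ccl2-/- and 4.30 in Cx3cr1-/-Ccl2-/-, against 2.10 in WT and 1.22 in Cx3cr1-/- (genotype term 2.42, adjusted p = 4.8e-06). Trem2 had -2.68 and -1.78 in the pools labelled Ccl2-deficient, against -0.70 and -0.69, and Apoe had -2.03 and -1.51, against 0.01 and -0.39 (adjusted p of the terms 0.020 and 0.015). Igf1 had -2.92 and -2.48, against -0.80 and -1.01. C1qa, of the complement list, had -3.53 and -1.47, against 0.61 in WT and -1.39 in Cx3cr1-/- (genotype term -2.11, adjusted p = 0.00020). Slc40a1 went the other way, its difference being smaller in the pools labelled Ccl2-deficient, at -0.61 and -1.56, against -3.77 in WT and -2.27 in Cx3cr1-/-. By contrast Plac8 differed by 4.16 and 4.54, against 4.24 and 4.35, and Ly6c1 by 3.34 and 3.67, against 3.69 and 3.33, and neither term was called.

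**Figure D5:**
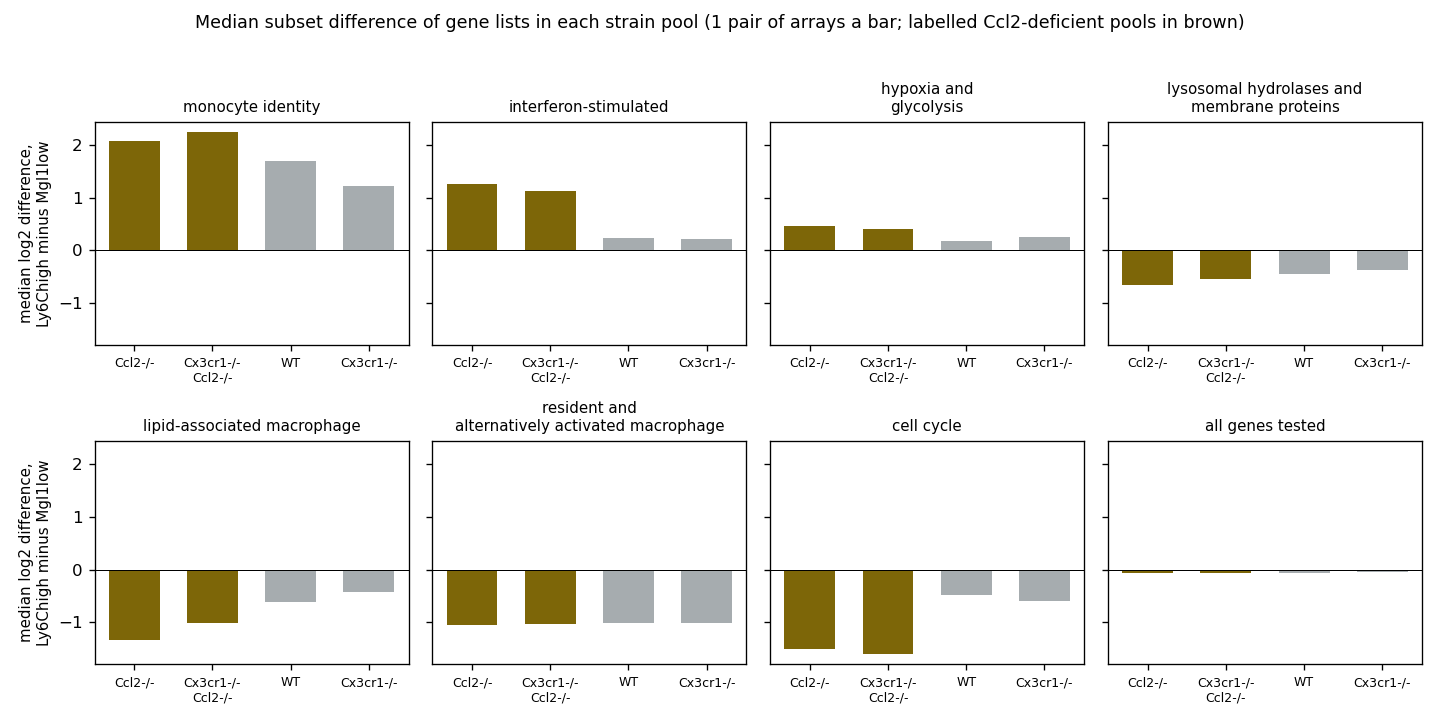
Median log2 difference (vertical axis, Ly6Chigh minus Mgl1low) of 7 gene lists and of all genes tested in each strain pool (horizontal axis), 1 pair of arrays a bar, with the pools labelled Ccl2-deficient in brown and the others in grey. The interferon-stimulated genes reach 1.26 and 1.13 in the brown bars, against 0.23 and 0.21 in the grey ones, and the cell cycle genes -1.51 and -1.61, against -0.48 and -0.61.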

How the data were processed

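Sorted cells of injured or untreated muscle were profiled on Illumina mouse WG-6 BeadChips of 45281 probes, 24 arrays in all. The deposited table holds the authors' non-normalized intensity of each probe, exported with GenomeStudio (version not given in the sources used here), and the detection p-value that the authors deposited beside it. A table of the authors' processed intensity values was used as an alternative only. Intensities were background-corrected from the detection p-values, quantile-normalized over the 24 arrays with an offset of 16 and turned to log2 (neqc of limma 3.58.1, R 4.3.3), which pulls arrays with different numbers of expressed genes to 1 distribution. Probes detected at p under 0.05 in at least 4 of the 8 arrays were fitted with limma, subset and strain pool as terms, and adjusted by the Benjamini-Hochberg method. The pools pair the arrays, since they hold the same mice; deviations from the subset means correlated at 0.24, 0.39, 0.31 and 0.23 within WT, Cx3cr1-/-, Ccl2-/- and Cx3cr1-/-Ccl2-/- pools, and between -0.37 and 0.32 across different pools. Genotype terms were fitted on the 4 within-pool differences. Of the probes, 34885 had 1 gene symbol, 18 had several and 10378 had none here; a gene is its tested probe with the highest mean. Named genes were the 12 with the largest differences in each direction and the genes of the sort and the strains. Up to 6 called members of each list in each direction and up to 2 of its brightest members not called were also named. Ctsd, C1qa and second probes were chosen after their values were seen. The members and gene lists were chosen with earlier results of these data known. Alternatives covered pairing, background correction, scaling, detection filter, test and each pair left out. Promoter sequences are from RefSeq. Array number limits the precision.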

Additional observations from a re-analysis of the deposited data

Results flagged for a closer look

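Within groups of 4 arrays, 14 of 266 groups examined had 1 array far from the other 3 (Dixon's test at the 95% level), and chance alone marks about 1 group in 20. In Ly6Chigh cells the Ccl2-/- array stood highest for F10 (11.46, others 10.42 to 10.56), Npc2 (13.35, others 12.62 to 12.73), Lgals3 (12.09, others 11.83 to 11.87) and Nos2 (5.15, below detection). The Cx3cr1-/- array was highest for Glb1 (7.70, others 6.88 to 6.95), the Cx3cr1-/-Ccl2-/- array for Birc5 (5.21, others 4.98 to 4.99) and the WT array for Mmp12 (9.55, others 8.23 to 8.45). In Mgl1low cells the Ccl2-/- array was highest for Acod1 (7.66, others 6.00 to 6.14) and Il1rn (9.67, others 8.87 to 8.98), the Cx3cr1-/- array for Il10 (9.75, others 8.74 to 8.86) and Ly6c1 (6.12, others 5.82 to 5.83), the Cx3cr1-/-Ccl2-/- array for Cd163 (11.31, others 9.84 to 9.99) and the WT array for Gpnmb (14.16, the others at 13.87, a value they share as a rank after quantile normalization, so that the tie sets the gap). Syngr1 was lowest in the WT array (7.83, others 8.19 to 8.21).

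For 11 genes that the rule above selects and that the Results name, limma's test of the Ccl2 genotype term was called in the main fit. Their subset difference thus differed there between the pools labelled Ccl2-deficient and the others. The term was positive for Vcan (2.42), Slc40a1 (1.94), Il10 (1.6) and Ifit2 (1.41). It was negative for Ctsk (-2.11), Syngr1 (-2.03), Igf1 (-1.79), Apoe (-1.58), Trem2 (-1.54), Cdca8 (-1.48) and Itga9 (-1.44). Rrm1 (-1.95) and Ankrd37 (1.75), which the rule also selects but the Results do not name, were called in this term too. The count of such probes depends on the processing, as given next. None of the 11 was called with the authors' values, without background correction or without the detection filter, since each of these settings called 0 probes.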

How the results depend on the processing

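The number of probes called in the subset difference was 3148 (1474 higher and 1674 lower in Ly6Chigh cells). Without the replicate block, that is without the pairing by pool, it was 1799 (795 and 1004). Over all 16 day-4 arrays it was 41 (16 and 25) without the block and 73 (26 and 47) with it; the setting with 13 of them, chosen after seeing the data, gave 1392 (636 and 756). Median scaling gave 5462 (502 and 4960), so that 9.2% of calls were higher, against 46.8%. No detection filter gave 1801 (768 and 1033), and only probes detected in all 8 arrays gave 2271 (1277 and 994), of which 56.2% were higher. A one-way test per probe between the 2 subsets gave 432 (127 and 305) after Benjamini-Hochberg adjustment and 1730 (706 and 1024) at an unadjusted p under 0.01. Asking for 2-fold as well left 731 (300 and 431). Leaving out 1 pair gave 1023 to 3599 calls, 428 to 1753 higher and 595 to 1846 lower: 1925 (860 and 1065) without the Cx3cr1-/- pair, 1705 (706 and 999) without the Ccl2-/- pair and the lowest without the Cx3cr1-/-Ccl2-/- pair. Without background correction, with only the 8 arrays normalized together and with the authors' values it was 2447, 2939 and 2578. No named gene that was called changed sign under these settings.

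The Ccl2 genotype term, with 172 probes, had 0 without background correction, 5 under median scaling, 6 with only the 8 arrays normalized together, 0 with the authors' values, 0 without the filter and 1 with probes detected in all 8 arrays; it had 252 with probes detected in 3 of 4 arrays of either subset and 151 with a variance trend. The cause of these changes was not tested. A fit with the slide as a block was not run because the files name no slides.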
